A study of Oryza sativa with 6 samples.

Results

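Ubiquitin ligases, F-box proteins and their close partners were followed in rice seedlings in which the gene OsRDR3 had been altered. Members were the listed loci whose annotation gives ubiquitin-protein transferase or ubiquitin protein ligase activity, or whose protein name contains ubiquitin or F-box. Loci annotated to the chloroplast, the Golgi apparatus, the cytosolic ribosome or protein kinase activity were left out, which removed 4 loci. The rule found 55 loci among 6922 in the deposited tables. Of these, 17 were listed only in the comparison of libraries labelled knock-down with wild type, 27 only in that of over-expression libraries with wild type, and 11 in both. The rule used annotation alone, with no measured value.

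The plants were 5-week-old seedlings of the indica cultivar Pusa Basmati 1. The 6 RNA-seq libraries came as pairs from wild-type plants, from plants over-expressing OsRDR3 and from plants labelled as its knock-down. The labels give neither the promoter of each transgene, nor the number of independent lines or of plants per library, nor whether replicates came from separate plants, so the authors' p-values may measure technical spread. OsRDR3 is an RNA-dependent RNA polymerase, an enzyme class that copies RNA into double-stranded RNA.

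Ubiquitin is a small protein that is joined to other proteins through a chain of enzymes, in which an activating enzyme (E1) passes it to a conjugating enzyme (E2) and a ligase (E3) selects the target. RING-type ligases hold the charged E2 close to the target, while F-box proteins are the target-binding subunits of SCF ligases, which are built on a cullin and SKP1. Proteins that carry chains of ubiquitin are commonly degraded by the proteasome, and deubiquitinases take ubiquitin off again. In plants this system sets the level of many light, hormone and defence regulators, and F-box and RING ligases form very large gene families.

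The label of the set described 47 of the 55 loci, those annotated as ligases, F-box or SCF proteins, or ubiquitin transferases. The other 8 were brought in by the word ubiquitin in their protein names. They were 3 ATG8 proteins of autophagy, 3 proteins of the SUMO and UFM1 pathways, and 2 enzymes that remove ubiquitin. The annotation names the protein of 30 loci, and the remaining 25 are known only by their annotated terms. Members lay on all 12 chromosomes, on a build that the labels do not name, and the closest pair, BGIOSGA017979 and BGIOSGA019934 on chromosome 5, was 83.6 kb apart.

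Each table held 1 value per group and locus, in FPKM (fragments scaled for transcript length and library size), pooled by the authors over the 2 libraries. The spread between replicates and the depth of each library are therefore unknown. Loci were called at the authors' q under 0.05 from Cuffdiff, and every listed locus had an unadjusted p of at most 0.05, so members that missed that level are not analysed here. The wild-type libraries were the same in both tables, but their FPKM values were 1.04 times higher in the over-expression table, so levels are compared only within a table. The polymerase locus BGIOSGA002194, which the tables do not pair with the name OsRDR3, went from 0.190 to 69.5 FPKM in the table labelled knock-down and from 0.198 to 58.7 FPKM in the over-expression table. If it is the target, its level goes against the knock-down label, and directions below are given for libraries carrying that label. Leaf transcripts also moved. Of 23 listed light-harvesting, photosystem and Rubisco small-subunit loci, 20 fell in the libraries labelled knock-down, and their summed level went from 25106 to 7828 FPKM. In over-expression 6 of 16 fell and 1 rose, and the sum went from 12172 to 7259 FPKM. None of these loci was listed at 0, and their part in the results below was not tested. Fewer leaf cells and less RNA per cell cannot be told apart in such samples.

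In the libraries labelled knock-down, the 3 listed members with an F-box or SCF role rose and the 3 listed ATG8 members fell. Of all listed loci 17.6% were called higher and 36.7% called lower. Roles were assigned after values were seen, and 2 of the 3 F-box or SCF loci have F-box in their name. Of 6 further loci outside the rule with a cullin, SKP1, SCF or ubiquitin-ligase-binding annotation, 4 lay below wild type and 1 was called lower. RING-type ligases, with 4 called higher and 2 called lower, moved both ways. Listed members of the other ligase and transferase roles also lay on both sides of wild type, apart from the single named E3 ligase, which lay above it without being called. Log2 fold changes were also centred on the median of all listed loci. That median was below 0, so centring raised every value and only falls could reverse. The 3 ATG8 falls held, and of the 2 RING-type falls 1 held and 1, named below, did not. Called members numbered 17 of 28, or 60.7%, against 54.3% of all 4341 listed loci. Members called higher numbered 8 (28.6%, against 17.6% of all listed loci) and members called lower numbered 9 (32.1%, against 36.7%). At q under 0.01 the count was 9, with 32.4% of all listed loci passing. The 28 had a median log2 fold change of -0.48, beside -0.58 for all listed loci, and the sign of the members' median depended on which loci were counted. Without the 5 listed ATG8, UFM1 and ubiquitin-removing loci the median of the other 23 was 0.66, with 12 above wild type and 11 below.

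In over-expression 27 of 38 members lay above wild type, or 71.1%, close to the 67.8% of all listed loci, and 16 of the 27 lay below 0 after centring. RING-type ligases made up 6 of the 9 members that rose, of which 4 stayed higher after centring, and their largest increases were near 3-fold. Called members numbered 11, or 28.9%, against 51.5% of all 4295 listed loci. Members called higher were 23.7% of the set, against 37.9% of all listed loci, and the 2 called lower were 5.26%, against 13.6%. At q under 0.01 the count was 5, with 26.6% of all listed loci passing. The median log2 fold change was 0.52, beside 0.67 for all listed loci. The difference in these shares between the members and other loci was not tested.

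**Figure D1:**
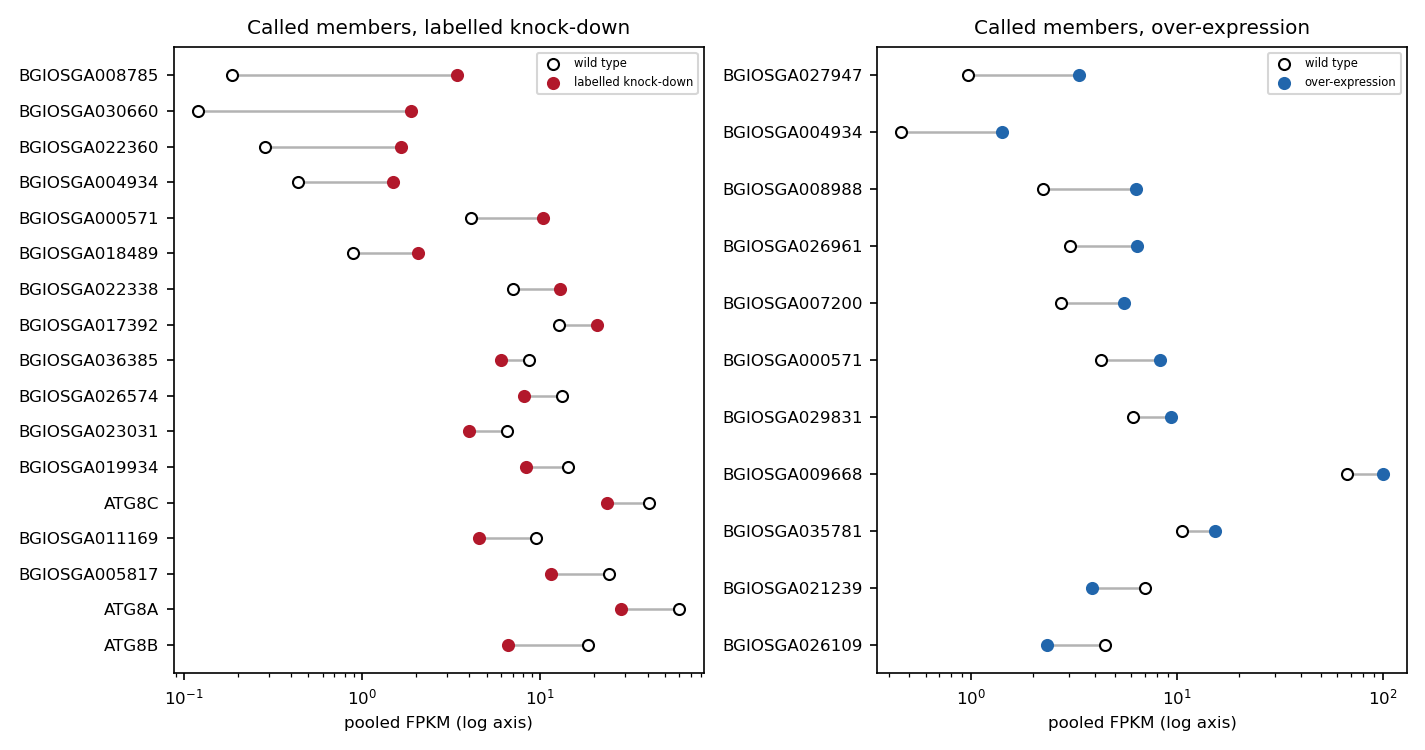
Pooled FPKM of each called member (rows) in wild type (open circles) and in the transgenic libraries (filled circles) on log axes, for the libraries labelled knock-down (17 loci, left) and over-expression (11 loci, right). There are no error bars because each point is 1 pooled value; the loci that fell on the left started at 6.54 FPKM or more, whereas 5 of the 8 that rose started under 1 FPKM.

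RING-type E3 ubiquitin transferases were the largest named group, with 15 loci. In the libraries labelled knock-down 7 were listed, of which 4 rose (57.1%, against 17.6% of all listed loci) and 2 fell (28.6%, against 36.7%). The strongest was BGIOSGA030660, on chromosome 9 from 11217622 to 11219761, where 0.120 FPKM in wild type became 1.89 FPKM, and the log2 fold change was 3.98 (q = 0.017 by the authors' deposited table). Its wild-type level was near 0, so the 15.8-fold difference is uncertain, and with a pseudocount of 1 FPKM the log2 fold change was 1.37. BGIOSGA004934 rose from a wild-type level of 0.438 FPKM to 1.48 FPKM (q = 0.0016 by the authors' deposited table). BGIOSGA000571, on chromosome 1 from 38631851 to 38633894, was better expressed and rose 2.52-fold, from 4.08 to 10.3 FPKM (q = 0.000868 by the authors' deposited table).

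One pair of RING-type loci carried the same annotation and went opposite ways in the libraries labelled knock-down. BGIOSGA018489 and BGIOSGA036385 are both annotated to the plasma membrane, leaf senescence, and the regulation of abscisic acid synthesis and of chlorophyll synthesis and breakdown. BGIOSGA018489 rose from 0.884 to 2.06 FPKM (q = 0.000868 by the authors' deposited table). BGIOSGA036385 fell from 8.68 to 6.04 FPKM (q = 0.038 by the authors' deposited table), a log2 fold change of -0.52 that turned to 0.06 after centring. The other RING-type locus that fell was BGIOSGA011169, which went from 9.48 to 4.54 FPKM (q = 0.000868, the authors' deposited table) and stayed lower after centring. BGIOSGA008988 was not called there, with 2.14 and 3.42 FPKM and q = 0.0668 in the authors' deposited table.

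In over-expression 11 RING-type loci were listed and 10 lay above wild type, or 90.9%, against 67.8% of all listed loci. Of the 11, 6 rose (54.5%, against 37.9%) and 1 fell (9.09%, against 13.6%), and these differences in share were not tested. After centring, 4 of the 6 stayed higher. The largest rises by deposited fold were those of BGIOSGA004934, from 0.458 to 1.41 FPKM, and of BGIOSGA008988 (chromosome 2, 32502936 to 32506867), from 2.24 to 6.33 FPKM (q = 0.0107 and 0.00105 by the authors' deposited table). BGIOSGA004934 started under 1 FPKM. With a pseudocount of 1 FPKM its log2 fold change was 0.72, beside 1.18 for BGIOSGA008988. BGIOSGA026961 went from 3.03 to 6.39 FPKM and BGIOSGA000571 from 4.25 to 8.28 FPKM (q = 0.00105 and 0.00192 by the authors' deposited table). These 4 differed from wild type by 1.95-fold to 3.07-fold.

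The other 2 RING-type loci that rose in over-expression changed less. BGIOSGA029831 stood at 6.08 and 9.30 FPKM (q = 0.0415) and BGIOSGA035781 at 10.6 and 15.3 FPKM (q = 0.0489) in the authors' deposited table, and both turned lower after centring. BGIOSGA021239 was the RING-type locus that fell, from 7.00 to 3.88 FPKM (q = 0.00273 by the authors' deposited table). The 4 that were not called, BGIOSGA027863, BGIOSGA020048, BGIOSGA012330 and BGIOSGA008967, lay between 0.40 and 0.52 on the log2 scale by the authors' deposited table.

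A further 4 loci are named E3 ubiquitin-protein ligase and annotated to zinc binding, the nucleus and development of the multicellular organism. All 4 were listed in over-expression, each above wild type, and 1 was called (25%, against 37.9% of all listed loci called higher). That locus, BGIOSGA007200, rose from 2.73 to 5.49 FPKM (q = 0.038 by the authors' deposited table). BGIOSGA019456, at 14.8 and 21.7 FPKM, and BGIOSGA010719, at 1.36 and 3.21 FPKM, missed the threshold narrowly (q = 0.0506 and 0.0551 by the authors' deposited table). BGIOSGA006661 had 12.0 and 17.1 FPKM (q = 0.0859 by the authors' deposited table), and after centring it and BGIOSGA019456 turned lower. In the libraries labelled knock-down only BGIOSGA010719 of the 4 was listed, at 1.31 and 2.40 FPKM (q = 0.16 by the authors' deposited table).

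**Figure D2:**
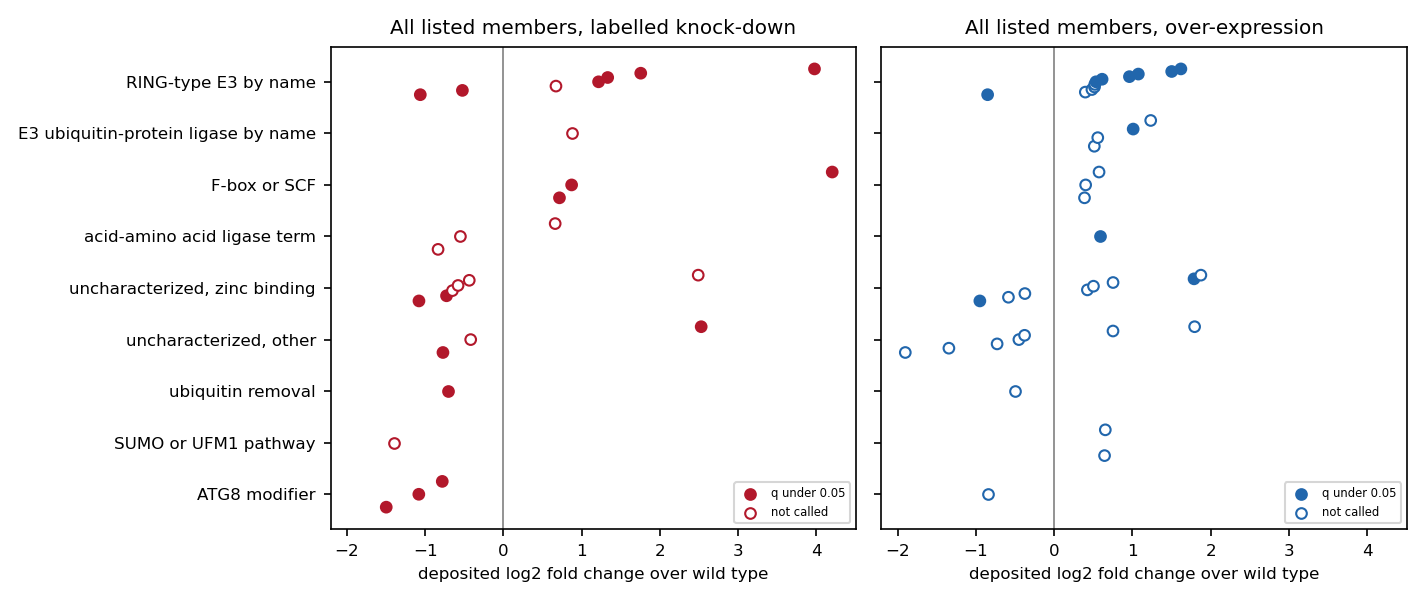
Deposited log2 fold change over wild type for each listed member, grouped by role (rows), in the libraries labelled knock-down (28 loci, left) and over-expression (38 loci, right); filled points passed q under 0.05 and open points did not. On the left the 3 F-box or SCF points lie right of 0 and the 3 ATG8 points left of it, and on the right RING-type points run from -0.85 to 1.62.

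F-box and SCF proteins were represented by 4 loci. Under the knock-down label 3 were listed and 100% of them were called higher, against 17.6% of all listed loci. The coronatine-insensitive homolog BGIOSGA012284, of an F-box family but outside the member rule, lay below wild type there. Its log2 fold change was -0.45 and it was not called. The largest change was that of BGIOSGA008785, an F-box/DUF domain-containing protein on chromosome 2 from 29019749 to 29020883. Under the knock-down label its 0.186 FPKM of wild type became 3.43 FPKM, a log2 fold change of 4.20 (q = 0.0487 by the authors' deposited table). The 18.4-fold difference rests on a wild-type level near 0, and with a pseudocount of 1 FPKM the log2 fold change was 1.90. This locus was not listed in over-expression.

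The tubby-like F-box protein BGIOSGA017392, on chromosome 4 from 34355059 to 34357901, was expressed at a moderate level in wild type. Under the knock-down label it rose from 12.7 to 20.8 FPKM (q = 0.00292 by the authors' deposited table), and had 13.2 and 17.4 FPKM with q = 0.165 in over-expression. Tubby-like F-box proteins combine an F-box with a tubby domain, a fold known to bind membrane phosphoinositides. A second tubby-like locus, BGIOSGA017979, was listed in over-expression alone, at 5.31 and 7.91 FPKM (q = 0.0859 by the authors' deposited table).

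BGIOSGA022338 is an uncharacterized protein annotated to the nucleus and the SCF ligase complex, and to processes that include ageing, response to water deprivation, auxin transport, shoot morphogenesis and virus-induced gene silencing. It lies on chromosome 6 from 3328464 to 3338093. Under the knock-down label it rose 1.83-fold, from 6.99 to 12.8 FPKM (q = 0.000868 by the authors' deposited table). In over-expression it stood at 7.29 and 9.54 FPKM (q = 0.189 by the authors' deposited table). All 3 F-box and SCF loci listed in over-expression were above wild type as deposited (100%, against 67.8% of all listed loci). None was called there by Cuffdiff (0%, against 51.5%), although each had an unadjusted p of at most 0.05. All 3 lay below 0 after centring.

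Uncharacterized loci known only by a ubiquitin transferase term were sorted by their other annotation. The 4 with an acid-amino acid ligase term included the most abundant member of the set, BGIOSGA009668, which is annotated to histone H2B ubiquitination, leaf morphogenesis and restraint of flowering. In over-expression it rose from 66.6 to 99.9 FPKM (q = 0.0256 by the authors' deposited table), a log2 fold change of 0.59 that became -0.08 after centring. BGIOSGA000218, BGIOSGA012473 and BGIOSGA004698, annotated to proteasome assembly and misfolded proteins or to proteasome-mediated breakdown, were listed under the knock-down label. The authors' deposited table gave them log2 fold changes of -0.83, -0.55 and 0.66, and q from 0.0594 to 0.0963, so they were not called.

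Of 12 uncharacterized zinc-binding loci, 6 were listed in the libraries labelled knock-down and 2 of these fell (33.3%, against 36.7% of all listed loci). BGIOSGA005817, annotated to the nucleus and the regulation of defence, fell from 24.2 to 11.5 FPKM (q = 0.000868 by the authors' deposited table). BGIOSGA023031, annotated to DNA replication, fell from 6.54 to 3.95 FPKM (q = 0.0321 by the authors' deposited table). Both stayed lower after centring. The 4 that did not pass were spread over several roles. BGIOSGA005530, annotated to a CUL4-RING ligase complex, the repression of photomorphogenesis and the entrainment of the clock, had 5.35 and 3.96 FPKM (q = 0.173 by the authors' deposited table). BGIOSGA012276, annotated to hormone signalling, defence and photoperiodic flowering, had 12.5 and 8.35 FPKM (q = 0.0558 by the authors' deposited table). BGIOSGA002485 was near silent in wild type, at 0.303 against 1.70 FPKM (q = 0.133 by the authors' deposited table).

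In over-expression 8 uncharacterized zinc-binding loci were listed, of which 1 rose and 1 fell (12.5% each, against 37.9% and 13.6% of all listed loci). BGIOSGA027947, annotated to wounding, jasmonic acid signalling and defence against bacteria, went from 0.964 to 3.33 FPKM, a 3.45-fold rise (q = 0.00789 by the authors' deposited table). BGIOSGA026109 is annotated to the peroxisomal membrane, protein import into the peroxisome, photorespiration and attachment of the peroxisome to the chloroplast. It fell from 4.49 to 2.32 FPKM (q = 0.0397 by the authors' deposited table), and it lies on chromosome 7 from 23097719 to 23101767. In the libraries labelled knock-down it stood at 4.31 and 2.74 FPKM (q = 0.129 by the authors' deposited table).

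The zinc-binding loci that were not called in over-expression ranged widely. BGIOSGA014729, annotated to DNA repair, had 0.268 and 0.984 FPKM (q = 0.057 by the authors' deposited table). BGIOSGA029699, annotated as a negative regulator of abscisic acid signalling, had 14.0 and 18.7 FPKM (q = 0.168 by the authors' deposited table). The log2 fold changes of BGIOSGA010490, BGIOSGA014528, BGIOSGA026184 and BGIOSGA023031 were 0.75, 0.50, -0.37 and -0.58 in the authors' deposited table.

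Of the 8 remaining uncharacterized loci, 7 were listed in over-expression and 0 of these were called, against 51.5% of all listed loci. Under the knock-down label 3 were listed, with 1 called higher (33.3%, against 17.6% of all listed loci) and 1 called lower (33.3%, against 36.7%). BGIOSGA022360, annotated to a ubiquitin ligase complex, rose from 0.285 to 1.64 FPKM (q = 0.0321 by the authors' deposited table). With a pseudocount of 1 FPKM its log2 fold change of 2.53 became 1.04. BGIOSGA019934, with the same complex term, fell from 14.2 to 8.33 FPKM (q = 0.00292 by the authors' deposited table). BGIOSGA033831, annotated to blue light, circadian rhythm and the promotion of flowering, was not called in either comparison, at 29.6 and 22.2 FPKM (q = 0.0945) under the knock-down label and 30.9 and 23.7 FPKM (q = 0.161) in over-expression, per the authors' deposited table. Of 7 listed in over-expression, the furthest below wild type were BGIOSGA018974, annotated to temperature, salt and abscisic acid responses, and BGIOSGA019713, annotated to red and far-red light signalling. Their log2 fold changes were -1.90 and -1.35 at levels of 2.29 FPKM or less (q = 0.121 and 0.187 by the authors' deposited table). For BGIOSGA005255, BGIOSGA030367 and BGIOSGA031083 the authors' deposited table gave -0.73, -0.45 and 0.75.

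Both enzymes that remove ubiquitin were below wild type where listed. The ubiquitin thioesterase BGIOSGA026574 fell under the knock-down label from 13.2 to 8.05 FPKM (q = 0.0208 by the authors' deposited table) and stayed lower after centring. UBP26, a ubiquitin carboxyl-terminal hydrolase whose Arabidopsis counterpart removes ubiquitin from histone H2B, had 9.38 FPKM in wild type against 6.60 FPKM in over-expression. It missed the threshold narrowly (q = 0.0508 by the authors' deposited table), and centring lowers every value in over-expression, so it could not reverse this locus.

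ATG8 proteins are ubiquitin-like modifiers that are joined to a lipid of the autophagosome membrane, and they are no ligases. All 3 listed ATG8 loci fell in the libraries labelled knock-down (100%, against 36.7% of all listed loci), and all 3 stayed lower after centring. ATG8B went from 18.6 to 6.59 FPKM, a 2.82-fold decrease (q = 0.0276 by the authors' deposited table). ATG8A was the most abundant member in that comparison and went from 60.3 to 28.5 FPKM (q = 0.0016 by the authors' deposited table). ATG8C went from 40.9 to 23.8 FPKM (q = 0.0459 by the authors' deposited table), close to the threshold. In over-expression ATG8B alone was listed and was not called, at 19.4 and 10.8 FPKM (q = 0.172 by the authors' deposited table).

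Members of the SUMO and UFM1 pathways, which attach other small proteins by similar steps, were not called in either comparison. They numbered 1 under the knock-down label and 2 in over-expression, where 54.3% and 51.5% of all listed loci were called. The SUMO locus BGIOSGA000243 had 56.6 and 89.0 FPKM in over-expression (q = 0.0825 by the authors' deposited table). The UFM1-conjugating enzyme BGIOSGA032665 had 9.47 and 14.8 FPKM with q = 0.135 in the same comparison of the authors' deposited table. UFM1 itself (BGIOSGA000062) had 11.5 and 4.35 FPKM under the knock-down label (q = 0.19 by the authors' deposited table).

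The 11 loci listed in both tables allow each comparison's values to be set side by side. Both comparisons use the same wild-type libraries, so a like direction in both is not independent evidence. For BGIOSGA000571 the log2 fold change was 1.33 under the knock-down label and 0.96 in over-expression, and for BGIOSGA004934 it was 1.76 and 1.62, all called in the authors' deposited table. For BGIOSGA022360 it was 2.53 (called) and 1.80 (q = 0.149), and for BGIOSGA022338 0.87 (called) and 0.39 (not called) in the authors' deposited table. As deposited, the larger difference was in over-expression for BGIOSGA008988, with 0.67 (not called) and 1.50 (called), and for BGIOSGA026109, with -0.65 (not called) and -0.95 (called), by the authors' deposited table. BGIOSGA010719, with 0.87 and 1.23 and no call in either, had the same order by the authors' deposited table. ATG8B had -1.50 (called) and -0.85 (not called), and BGIOSGA023031 had -0.73 (called) and -0.58 (not called) in the authors' deposited table. After centring, the order of the 2 comparisons reversed for BGIOSGA008988, at 1.26 and 0.83, and for BGIOSGA010719, at 1.46 and 0.56. It also reversed for ATG8B, at -0.91 and -1.52, and for BGIOSGA023031, at -0.14 and -1.25. The order held for the other loci named in this paragraph. Whether any locus differed between the transgenic groups was not tested, since no value of a single library is given.

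**Figure D3:**
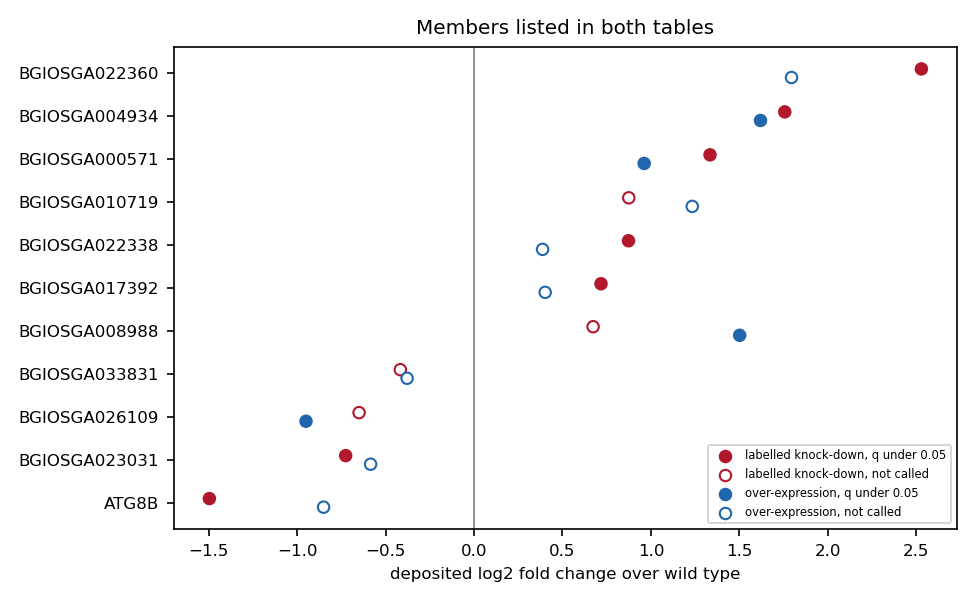
Deposited log2 fold change over wild type of the 11 members listed in both tables, in red for the libraries labelled knock-down and in blue for over-expression; filled points passed q under 0.05. BGIOSGA022360 reaches 2.53 in red, BGIOSGA008988 reaches 1.50 in blue, and both colours use the same wild-type libraries.

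Members that rose under the knock-down label mostly started lower than those that fell. The 9 called lower started between 6.54 and 60.3 FPKM and the 8 called higher between 0.120 and 12.7 FPKM, so the ranges overlapped. All 6 members under 1 FPKM in wild type were above it in the libraries labelled knock-down, as were 88.3% of the 599 such loci among all those listed. In over-expression all 5 such members were above wild type, as were 95.7% of 714 listed loci, and the members that rose started between 0.458 and 66.6 FPKM. These shares are a description of listed loci and were not tested. Members listed under the knock-down label had a median wild-type level of 8.56 FPKM, beside 5.53 FPKM for all listed loci.

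**Figure D4:**
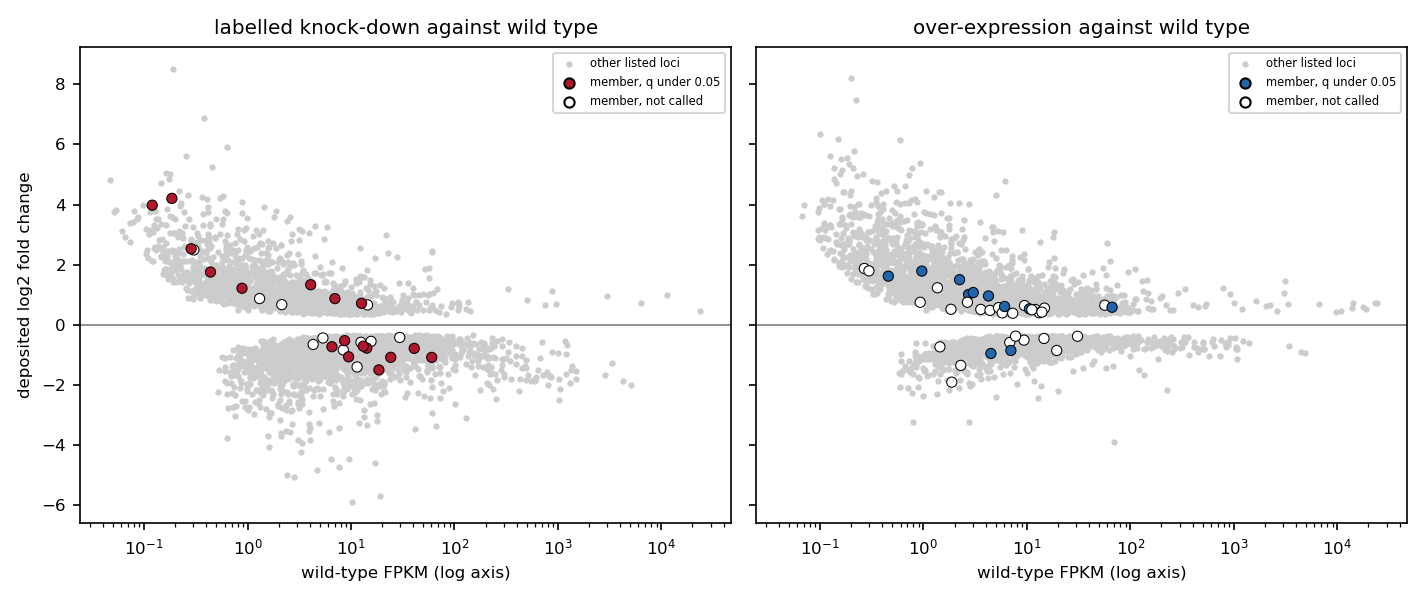
Wild-type FPKM (log axis) against deposited log2 fold change for all listed loci (grey) and for members (coloured where q was under 0.05, white otherwise), in the libraries labelled knock-down (left) and over-expression (right). Members reach 4.20 on the left and 1.88 on the right, and in both panels those under 1 FPKM in wild type lie above 0.

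Other genes of the pathway were described from lists of protein names and annotated terms, leaving members out. Loci with a name or term of the proteasome, the protease that degrades ubiquitin-tagged proteins, were mostly above wild type in over-expression. Not all of them encode its subunits. The 1 locus below wild type was the proteasome assembly chaperone BGIOSGA013630, at a log2 fold change of -0.72 (not called). Of 16 listed, 9 rose (56.2%, against 37.9% of all listed loci) and none fell by Cuffdiff's q under 0.05. That split became 5 higher and 4 lower after centring. At q under 0.01, 1 was called, with 26.6% of all listed loci passing. All 16 had an unadjusted p of at most 0.05. The proteasome beta subunit BGIOSGA021885 went from 18.3 to 31.6 FPKM (q = 0.00192 by the authors' deposited table) and the alpha subunit BGIOSGA017816 from 2.61 to 6.03 FPKM (q = 0.032 by the same table). The 16 had a median log2 fold change of 0.60, below the 0.67 of all listed loci.

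In the libraries labelled knock-down 7 proteasome loci were listed and 2 fell (28.6%, against 36.7% of all listed loci). Both stayed lower after centring. They were BGIOSGA005415, from 18.5 to 10.3 FPKM, and BGIOSGA022401, from 9.78 to 6.35 FPKM (q = 0.000868 and 0.0336 by the authors' deposited table). The alpha subunit BGIOSGA017816 had 2.50 and 4.49 FPKM there and was not called (q = 0.127 by the authors' deposited table).

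Loci outside the member set with a cullin, SKP1, SCF or ubiquitin-ligase-binding annotation gave few calls, and not all of them are scaffolds. Under the knock-down label 6 were listed and 4 lay below wild type. The 33.3% above it stood beside 34.9% of all listed loci, and 1 fell (16.7%, against 36.7%). In over-expression 5 were listed and 1 fell (20%, against 13.6%). The loci that fell were BGIOSGA034180, at 8.31 and 5.32 FPKM, and BGIOSGA020618, at 23.9 and 16.8 FPKM (q = 0.0339 and 0.0437 by the authors' deposited table). The coronatine-insensitive homolog BGIOSGA012284, of the family of jasmonate-receptor F-box proteins, had 12.6 and 9.22 FPKM under the knock-down label and was not called (q = 0.0889, the authors' deposited table). The 1 listed locus of the COP9 signalosome, which regulates cullin ligases, was BGIOSGA027897, and it fell from 5.83 to 3.54 FPKM under the knock-down label (q = 0.0459 by the authors' deposited table).

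Among other loci with a ubiquitin-removal term, 4 were listed in each comparison. Calls came in over-expression alone, 25% higher and 25% lower, against 37.9% and 13.6% of all listed loci. In over-expression BGIOSGA025185 rose from 1.60 to 2.94 FPKM and BGIOSGA026801 fell from 5.62 to 3.48 FPKM (q = 0.0127 and 0.0111 by the authors' deposited table), while under the knock-down label the 4 had log2 fold changes from -0.47 to 0.54 and q of 0.158 or more except for BGIOSGA033768 at 0.0842. SUMO-related loci numbered 2 under the knock-down label and 1 in over-expression, at -0.60, -0.47 and -0.39 on the log2 scale by the authors' deposited table, and were not called. The broad process terms for ubiquitination and ubiquitin-dependent breakdown, which share loci with the lists above, held 29 and 37 further loci. Of the 29, 1 rose and 10 fell in the libraries labelled knock-down, and the 34.5% that fell was near the 36.7% of all listed loci. Of the 37, 17 rose and 2 fell in over-expression, and the 45.9% that rose stands beside 37.9% of all listed loci. At q under 0.01, 3 fell and 0 rose under the knock-down label, with 32.4% of all listed loci passing in either direction. In over-expression 4 rose and 0 fell at that level, with 26.6% of all listed loci passing. After centring, the splits at q under 0.05 were 4 higher and 7 lower, and 11 higher and 8 lower.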

How the data were processed

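RNA-seq of 6 libraries in 3 groups of 2 was deposited as 2 tables of the authors' comparisons with wild type. Cufflinks 2.2.1 and Cuffdiff were used, per the submitters' processing notes; the aligner, build and Cuffdiff version were not given in the sources used here. Each group has 1 pooled FPKM column from the authors, per the file headers. Recomputing the deposited log2 fold change from the FPKM columns without a pseudocount gave the same values, to within rounding. The p-values and q-values are the authors', as deposited, and the lowest p was 5e-05. The tables hold no counts, so depth, intervals and replicate spread cannot be given. Strand use in counting is not given, and related ligase genes can share reads, so single copies are uncertain.

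A locus was called at q under 0.05. Members were counted by direction and set beside all listed loci, with no test on the list. Log2 fold changes were centred on the median of all listed loci as an alternative. Named loci were every called F-box member and named members called in both tables. Per table they also included the 8 largest called rises and falls reaching 1 FPKM and the 3 highest called levels. Each name class added up to 2 called members per table, or its member of highest FPKM where none was called, as with UBP26. This gave 26 loci, and other members are named so that each is accounted for. Members and lists were chosen with earlier results of these data known, and roles were assigned after values were seen. None of 55 members matched the RefSeq gene table of rice by identifier. Counting steps were tested on simulated data. Python 3.11.15 and pandas 2.3.3 were used.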

Additional observations from a re-analysis of the deposited data

How the results depend on the processing

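Values are pooled, so no replicate could be left out. No paired analysis was possible because the tables hold no value of a single library. The counts of called members kept within 1.5 times of those reported except as follows. Under the knock-down label (17 called, 8 higher and 9 lower), q under 0.01 left 9, 5 and 4, and a 2-fold minimum left 10, with 4 lower. Membership by annotated term alone left 11, with 5 lower, and keeping only ligase, F-box and transferase roles, an alternative chosen after seeing the data, left 5 lower. In over-expression (11 called, 9 higher and 2 lower), q under 0.01 left 5, 4 and 1, and a 2-fold minimum left 5, all higher, with 0 lower by Cuffdiff. Membership by protein name alone left 1 lower, and centring gave 5 lower. The members' median log2 fold change, -0.48 under the knock-down label, was -0.43 and -0.47 with pseudocounts of 1 and 0.1 and turned to 0.10 after centring. Over other sets of members, chosen after seeing the data, it turned to 0.66 for ligase, F-box and transferase roles alone and to 0.67 for membership by protein name alone, and was -0.42 both for membership by annotated term alone and with the excluded loci kept in. In over-expression the median of 0.52 was 0.44 and 0.51 with those pseudocounts, 0.52 for members reaching 1 FPKM, and -0.15 after centring. It was 0.56 for membership by protein name alone and 0.52 with the excluded locus kept in.

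No member changed direction with a pseudocount of 1. After centring 5 members reversed under the knock-down label, namely BGIOSGA012276 (0.0039), BGIOSGA012473 (0.034), BGIOSGA036385 (0.059), BGIOSGA005530 (0.15) and BGIOSGA033831 (0.17), of which BGIOSGA036385 was called. In over-expression 16 reversed, 3 of them called, namely BGIOSGA035781 (-0.14), BGIOSGA009668 (-0.084) and BGIOSGA029831 (-0.058). The others were BGIOSGA022338 (-0.28), BGIOSGA027863 (-0.27), BGIOSGA017392 (-0.27), BGIOSGA029699 (-0.25), BGIOSGA020048 (-0.19), BGIOSGA014528 (-0.17), BGIOSGA006661 (-0.16), BGIOSGA012330 (-0.15), BGIOSGA008967 (-0.15), BGIOSGA019456 (-0.11), BGIOSGA017979 (-0.10), BGIOSGA032665 (-0.026) and BGIOSGA000243 (-0.016). Centring subtracts the listed median, so small differences on the commoner side of a table reverse by construction. At q under 0.01, 8 called members under the knock-down label and 6 in over-expression were no longer called.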

Other observations

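The 4 loci left out for a kinase or chloroplast term carry ubiquitin transferase annotation too. BGIOSGA008771, with a kinase term, rose under the knock-down label from 0.743 to 1.49 FPKM (q = 0.0186 by the authors' deposited table). BGIOSGA031302 and BGIOSGA020994, also with kinase terms, were not called there, at 1.48 and 0.49 on the log2 scale by the authors' deposited table. The chloroplast RING-type locus BGIOSGA000314 had 4.29 and 6.07 FPKM in over-expression (q = 0.0903 by the authors' deposited table).

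Markers of other tissues, chosen by name, held few loci. Of 4 root loci listed under the knock-down label 1 rose and 1 fell, and their summed level was 12.3 FPKM in wild type and 11.2 FPKM under that label. In over-expression 1 of 2 root loci fell. The 2 listed flower loci, both MADS-box genes, fell under the knock-down label, from a sum of 22.7 to 10.2 FPKM. None of them was listed at 0, and their part in the results on members was not tested.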
